A study of Mus musculus with 2 samples.

Results

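The 95 potassium channel genes described here, of 24369 gene rows, were taken from the rows whose symbol begins with Kcn, one or more further lower-case letters and a number, leaving out the noncoding RNA Kcnq1ot1. Of these 95 members, 76 encode pore-forming subunits, 16 encode auxiliary subunits, and 3 are antisense RNAs named after a channel gene. The libraries came from alveolar type 2 cells (type II pneumocytes), the lung epithelial cells that make surfactant, sorted from wild-type C57BL6 mice at postnatal day 7 (P7) and postnatal day 28 (P28). There was 1 library per age and no treatment. The sources used here do not name the marker used for the sort or the number of mice per library. Each gene had 1 RPKM value per library, that is, its reads divided by gene length and by library depth.

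Potassium channels let potassium ions leave a cell down their gradient. In an epithelium that moves salt and water, they set the membrane voltage that drives sodium and chloride through other channels, and they return to the outside the potassium that the sodium pump brings in. A voltage-gated or inward rectifier channel is built from several pore subunits, each with a single pore loop, while a subunit of the two-pore-domain family carries a pair of pore loops and gives much of the resting, or leak, conductance. Auxiliary subunits, such as those of the Kcne and Kcnmb families, form no pore and change how a pore subunit opens or where it goes in the cell.

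The pore loop holds the selectivity filter, a short signature shared by nearly all potassium channels. It is shown here because most pore-forming members and no auxiliary member held it, which does not depend on their RPKM. The coding sequence was searched in frame, on the coding strand only, for the signature of 5 successive codons (any threonine codon, any codon, any glycine codon, a codon beginning with T such as those of tyrosine and phenylalanine, and any glycine codon). The lines give the first match in each pore-forming member that reached 1 RPKM, 5′ to 3′ on the coding strand, with the match in capitals and 15 coding bases on each side. They were read from GENCODE transcripts of build GRCm38.
Kcnj15: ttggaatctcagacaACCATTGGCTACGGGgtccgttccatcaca
Kcnj2: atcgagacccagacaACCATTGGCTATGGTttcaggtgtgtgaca
Kcnj13: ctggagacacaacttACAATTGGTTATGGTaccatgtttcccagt
Kcnk1: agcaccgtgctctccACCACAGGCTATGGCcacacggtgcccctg
Kcnk6: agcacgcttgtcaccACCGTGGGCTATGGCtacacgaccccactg
Kcnk2: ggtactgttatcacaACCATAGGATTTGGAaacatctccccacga
Kcnq1: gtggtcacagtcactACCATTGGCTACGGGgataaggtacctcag

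All 7 of these genes held the signature, as did 65 of the 76 pore-forming members, and none of the 16 auxiliary members did. Over all 20574 genes with a coding transcript, 508 (2.47%) held it. The 11 pore-forming members without a match were 7 of the 8 Kcnh genes, Kcnj14, Kcnn1, Kcnn2 and Kcnn3. The search took only this form of the signature. A missing match therefore does not show that a gene, or another pore loop of the same gene, lacks a selectivity filter. Of the 14 two-pore-domain genes, 11 held it at 2 places and 3 at 1. Kcnk2 had 2 matches, and Kcnk1 and Kcnk6 had 1 each. The matched bases of Kcnj15 and Kcnq1 were identical at 15 of 15 positions, although only 22 of all 45 printed bases were the same. Among the inward rectifiers, Kcnj15 and Kcnj2 shared 31 of 45 bases, and Kcnj15 and Kcnj13 shared 22. The Kcnk1 and Kcnk6 lines, from a pair of related leak channels, shared 32. The Kcnj15 line lies at chr16:95295965-95296009 on the plus strand, in the coding part of exon 4 of 4. The Kcnj2 line lies at chr11:111072192-111072236 on the plus strand, in exon 2 of 2, and the Kcnj13 line at chr1:87389006-87389050 on the minus strand, in exon 2 of 3. The other 4 lines run across a splice junction: exons 1 and 2 of Kcnk1 (chromosome 8) and of Kcnk6 (chromosome 7), exons 3 and 4 of Kcnk2 (chromosome 1), and exons 6 and 7 of Kcnq1 (chromosome 7).

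The steps between low values correspond to a depth of about 17600000 reads at P7 and 24500000 at P28, and total RPKM was 108758 and 143071. Genes with a transcript length held about 4420000 of these reads at P7 and 6830000 at P28. All 9 type 2 markers reached 1 RPKM, with a summed level of 18221 RPKM at P7 and 35014 at P28. Markers of other cells were also present. The 5 club cell markers summed to 7222 and 18966 RPKM and the 6 ciliated cell markers to 95.9 and 105. The 8 type 1 cell markers summed to 346 and 212, and the 7 endothelial markers to 38.5 and 14.0. The 7 fibroblast markers summed to 26.9 and 10.6 RPKM, and the 7 erythroid markers to 47.9 and 1.73. Of the erythroid markers, Hbb-b2 and Hbb-bt had identical values (5.36 and 0.410 RPKM), and Hbb-b1 and Hbb-bs had the same ratio (0.0205). The erythroid sum may therefore count the same reads more than once. Among the fibroblast markers, Dcn (0.490 and 1.35 RPKM) and Pdgfra (0.152 and 0.730) were higher at P28, and the others were lower. The 8 smooth muscle and pericyte markers summed to 4.70 and 1.17 RPKM, and the 8 immune markers to 7.84 and 5.48. Of the immune markers, Srgn (4.36 and 1.34 RPKM), Cd79b (2.84 and 3.02) and Cd68 (0.455 and 1.08) reached 1 RPKM in at least 1 library. Marco and C1qa were at 0 in both. None of the 7 basal and neuroendocrine markers reached 1 RPKM, and they summed to 0.567 and 0.329. Xist had 52.7 RPKM at P7 and 0.245 at P28, while the Y-linked gene Ddx3y had 0 and 4.01, and age cannot be told apart from sex in these libraries. With 1 library per age, no difference has a replicate check and no p-value can be given. Each interval in parentheses is an exact 95% interval that covers counting error only. A cell type's share of the sorted cells and its RNA per cell cannot be told apart in bulk libraries.

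A small group of genes held most of the summed RPKM of the members. Of the 95 members, 9 reached 1 RPKM at P7 and 10 at P28, the second set being the first plus Kcnk6. Over all gene rows, 38.2% reached 1 RPKM at P7 and 36% at P28. In at least 1 library, 10.5% of the members did so against 39.6% of all rows. The 10 genes were Kcnj15, Kcnj13 and Kcnj2 (inward rectifiers), Kcnk1, Kcnk2 and Kcnk6 (two-pore-domain leak channels), Kcnq1 (voltage-gated), and the auxiliary genes Kcne2, Kcnmb2 and Kcnmb4. Together they held 94.7% of this sum at P7 and 96.9% at P28. The 5 highest alone, Kcnj15, Kcne2, Kcnj13, Kcnj2 and Kcnk1, held 88.8% and 92.7%. The remaining 85 members summed to 4.83 RPKM at P7 and 4.57 at P28.

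**Figure D1:**
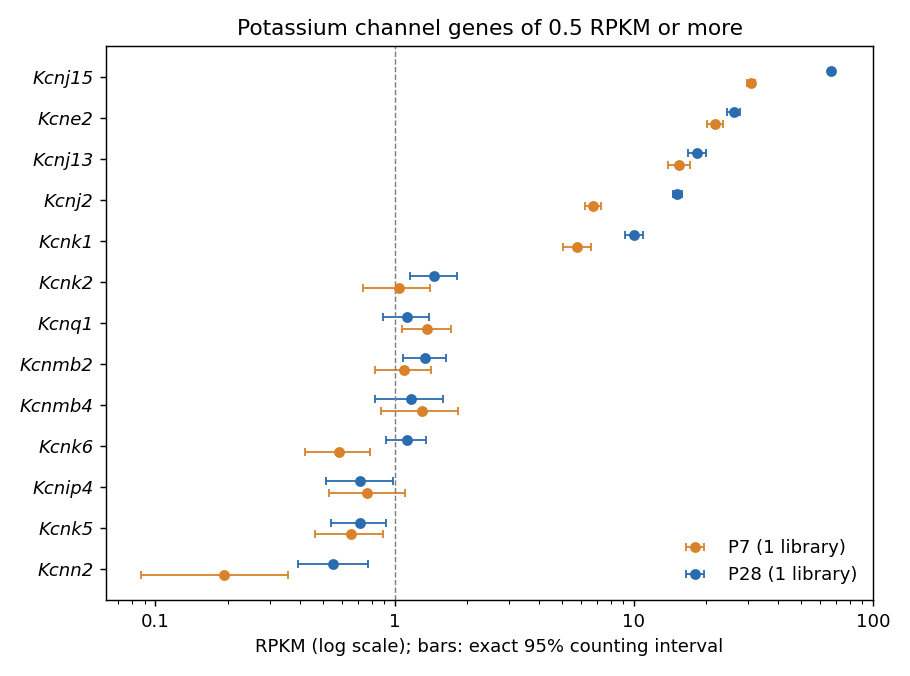
RPKM (log axis) of the 13 members with 0.5 RPKM or more at either age. Points are single libraries at P7 and P28, bars are exact 95% counting intervals, and the dashed line marks 1 RPKM. A group of 5 genes lies above 5 RPKM at both ages, and the others lie below 2 RPKM.

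Inward rectifier genes (Kcnj) gave the highest pore-forming levels among the members. Of 15 members, 3 reached 1 RPKM, and the other 12 all lay at or below 0.0521 RPKM, with 5 of them at 0 in both libraries. Kcnj15, which encodes the inward rectifier Kir4.2 (chromosome 16, 95257558 to 95300260, plus strand, GRCm38, protein coding), had 30.9 RPKM at P7 (29.6 to 32.2) and 66.6 at P28 (65.0 to 68.3). It was the highest of the 95 members in both libraries, and ranked 397 at P7 and 178 at P28 among all gene rows. Its level was 1.42 times that of Kcne2, the next member, at P7 and 2.55 times at P28.

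Kcnj13, an inward rectifier known from ion-transporting epithelia such as the retinal pigment epithelium, had 15.5 RPKM (13.9 to 17.2) at P7 and 18.4 (16.9 to 19.9) at P28. Kcnj2, a strong inward rectifier that sets resting voltage in muscle and other cells, had 6.76 RPKM (6.25 to 7.30) and 15.1 (14.5 to 15.8). The Kcnj13 gene (chromosome 1, 87386363 to 87394729, minus strand) lies within Gigyf2 on the opposite strand, and 623 of its 1270 exonic bases are also exonic in Gigyf2. Gigyf2 had 4.62 and 4.33 RPKM, lower than Kcnj13 at both ages, and no source says whether the counting was stranded. How much Gigyf2 reads add to the Kcnj13 value was not tested.

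The ATP-sensitive channel genes of this subfamily were near the detection limit. Kcnj11 had 0.0349 RPKM at P7 and 0.0250 at P28, about 1 read each. Kcnj8 had no read in either library, which allows up to 0.0670 RPKM at P7 and 0.0480 at P28 (3 reads). Of the sulfonylurea receptor genes, whose products join these pores, Abcc8 was at 0 in both libraries and Abcc9 had 0.0603 RPKM at P7 and 0.0324 at P28. Kcnj1, the kidney potassium secretory channel, had 0.0174 RPKM at P7 and 0 at P28.

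Two-pore-domain genes (Kcnk) were the other subfamily with 3 genes at 1 RPKM, out of 14 members. Kcnk1, a leak channel gene, was the highest of them, with 5.79 RPKM (5.05 to 6.58) at P7 and 10.02 (9.20 to 10.9) at P28. Kcnk2, whose channel opens on membrane stretch, had 1.05 RPKM (0.740 to 1.41) and 1.46 (1.16 to 1.83). Kcnk6, a relative of Kcnk1, had 0.583 RPKM (0.422 to 0.791) and 1.12 (0.921 to 1.35), so it reached 1 RPKM at P28 only and its interval there includes 1. Kcnk5, an alkaline-activated leak channel, fell just short at 0.658 RPKM (0.465 to 0.894) and 0.713 (0.540 to 0.915). Of the other 10 members, 5 were at 0 in both libraries.

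Many voltage-gated pore genes were very low. None of the 8 Shaker-type (Kcna), 2 Shab-type (Kcnb), 3 Shal-type (Kcnd), 8 Kcnh and 10 silent modifier genes (Kcnf, Kcng, Kcns and Kcnv) reached 1 RPKM. The highest of these 31 was the ERG channel gene Kcnh2, with 0.342 RPKM at P7 and 0.122 at P28.

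Of the 5 KCNQ genes, 1 reached 1 RPKM. Kcnq1, a KCNQ channel gene of many secretory epithelia, had 1.37 RPKM (1.07 to 1.72) at P7 and 1.12 (0.890 to 1.39) at P28. The antisense RNA Kcnq1ot1, which shares 121 of the 4093 exonic bases of Kcnq1, had 1.76 and 1.42 RPKM. Reads of the pair cannot be told apart in the shared bases if strand was not used.

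Calcium-activated pore genes did not reach 1 RPKM. Kcnma1, the pore of the large-conductance channel, had no read at P7 and 0.0208 RPKM, about 2 reads, at P28. Kcnn4, the intermediate-conductance channel of many epithelia and lymphocytes, had no read in either library, which allows up to 0.0868 RPKM at P7 and 0.0622 at P28. Kcnn2, a small-conductance channel gene, was the highest of this class at 0.194 RPKM (0.0866 to 0.360) and 0.553 (0.393 to 0.770).

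**Figure D2:**
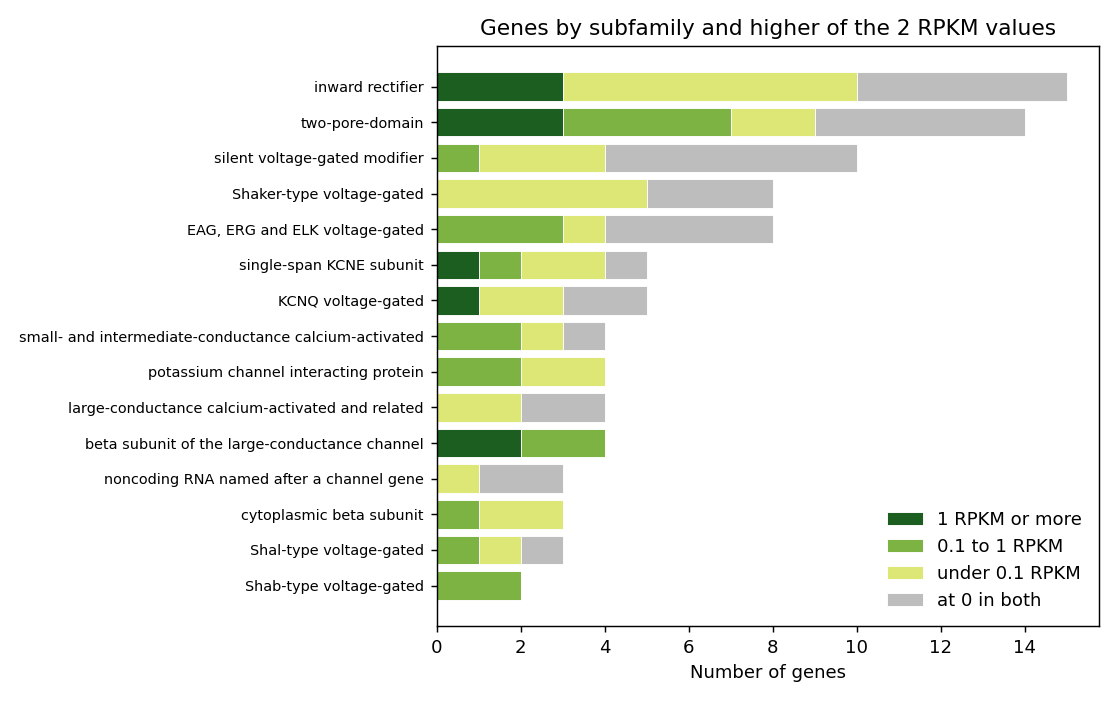
Number of genes in the subfamilies described (bar length), coloured by the higher of the P7 and P28 RPKM values. Inward rectifier and two-pore-domain genes each have 3 members at 1 RPKM or more, the large-conductance beta subunits have 2, and the KCNE and KCNQ groups have 1 each.

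Auxiliary genes reached 1 RPKM in 3 of 16 cases. Of the 16, 1 (6.25%) was at 0 in both libraries, against 30 of the 76 pore-forming members (39.5%). Over all gene rows, 39.6% reached 1 RPKM in at least 1 library and 31.3% were at 0 in both. Kcne2, a single-span subunit that can keep the Kcnq1 channel open at rest, had 21.8 RPKM (20.1 to 23.5) at P7 and 26.1 (24.5 to 27.7) at P28. Its pore partner Kcnq1 stood at 1.37 and 1.12. The other KCNE genes were low: Kcne3 had 0.132 and 0.166 RPKM. Kcne1 had no read in either library, which allows up to 0.0538 RPKM at P7 and 0.0386 at P28. Kcne2 lies on chromosome 16 (92292389 to 92298129, plus strand) and overlaps no other annotated gene. By contrast, antisense RNAs share 604 of the 4943 exonic bases of Kcnk2, 333 of the 6313 of Kcnj15 and 179 of the 2235 of Kcnk1. No RPKM value was found under the names of these RNAs, and their part in the values was not tested.

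The 4 beta subunit genes of the large-conductance channel had reads at both ages, whereas the pore gene Kcnma1 had none at P7. Kcnmb2 had 1.09 RPKM (0.825 to 1.42) at P7 and 1.34 (1.09 to 1.64) at P28. Kcnmb4 had 1.30 RPKM (0.877 to 1.83) and 1.17 (0.828 to 1.59). The other beta subunits, Kcnmb1 and Kcnmb3, peaked at 0.122 and 0.339 RPKM. Of the antisense RNAs that overlap Kcnmb4 exons, Kcnmb4os1 had no read in either library, and Kcnmb4os2 had 0 RPKM at P7 and 0.0260 at P28. Kcnip4, which encodes a calcium-binding partner of the Shal-type channels, had 0.768 RPKM (0.529 to 1.11) at P7 and 0.715 (0.515 to 0.981) at P28, while the highest Shal-type gene had 0.102.

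The order of levels was partly resolved by counting error. At P7 the intervals of Kcnj15, Kcne2 and Kcnj13 did not overlap with each other, nor did those of Kcnj13 and Kcnj2. Those of Kcnj2 and Kcnk1 overlapped. At P28 Kcnj15, Kcne2, Kcnj13, Kcnj2 and Kcnk1 followed in that order without overlap. Below them came a gap, with the next member 4.23 times lower at P7 (Kcnk1 over Kcnq1) and 6.86 times lower at P28 (Kcnk1 over Kcnk2). The 5 remaining genes had overlapping intervals from one neighbour to the next at both ages.

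Between the ages, 2 inward rectifier genes were called higher at P28 and no member was called lower. A gene was called at 2-fold on the scale of log2(RPKM + 1) provided that either library had 1 RPKM or more. The 2 were Kcnj15 and Kcnj2, out of 10 members above that level. Over all 9653 genes above it, 1.18% were called higher and 1.96% lower. These were 114 genes higher and 189 lower, against 65 and 445 with equal library totals, and 155 and 154 with the median log2 ratio of all genes set to 0. The 10 members include Kcnk6, which passed only through its P28 value.

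Kcnj15 had 30.9 RPKM at P7 and 66.6 at P28, about 2213 and 6660 reads, a ratio of 2.16 (2.06 to 2.27) and a log2 ratio of 1.09. Kcnj2 had 6.76 and 15.1 RPKM, about 647 and 2021 reads, a ratio of 2.24 (2.05 to 2.45) and a log2 ratio of 1.06. Both passed the 2-fold line narrowly. With both libraries brought to an equal total, both log2 ratios became 0.70 and neither gene was called. With a pseudocount of 5 they were 0.998 for Kcnj15 and 0.78 for Kcnj2, and again neither was called. Equal totals shift the median over all genes by -0.29, to -0.38 from -0.08 as deposited. The deposited totals were 108758 RPKM at P7 and 143071 at P28. Within them the type 2 markers held 18221 and 35014 RPKM and the club cell markers 7222 and 18966. Measured from the median of all genes, Kcnj15 stood at 1.17 as deposited and 1.07 with equal totals, and Kcnj2 at 1.14 and 1.07. Both type 2 and club cell markers had higher sums at P28, and their part in these differences was not tested.

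**Figure D3:**
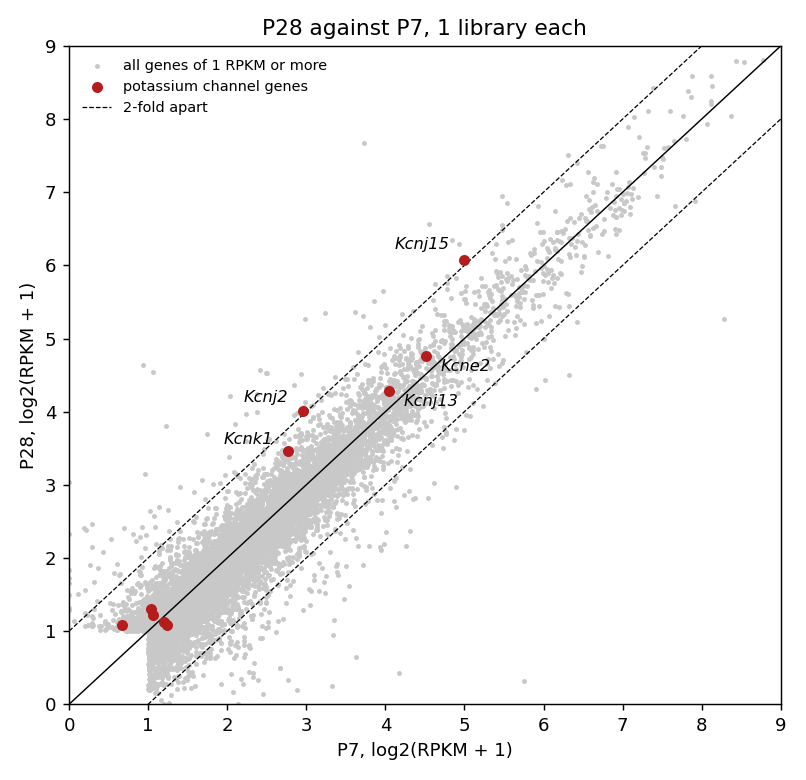
log2(RPKM + 1) at P28 against P7 for genes with 1 RPKM or more at either age (grey) and the 10 potassium channel members among them (red), with the line of equality and dashed lines 2-fold to each side. Kcnj15 and Kcnj2 lie just above the upper dashed line as deposited, though not with equal totals, and the other 8 lie between the lines; 13 genes above 9 on either axis are not drawn.

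The other 8 members lay within 2-fold. Kcnk1, at 5.79 and 10.02 RPKM, had a ratio of 1.73 (1.48 to 2.03) and a log2 ratio of 0.70, or 0.35 with equal totals. Kcnk6 had a ratio of 1.93 (1.33 to 2.80) on about 42 and 112 reads. Kcnk2, the third leak channel gene, had a ratio of 1.39 (0.956 to 2.13). With Kcnj15 and Kcnj2, Kcnk1, Kcnk6 and Kcnk2 were the only members of 1 RPKM or more whose log2 ratio stayed above 0 under the 3 scalings run. For Kcnk2 it was 0.05 with equal totals, and its interval as deposited includes 1. Kcnk6 passed the level only through its P28 value. Below 1 RPKM, the leak channel gene Kcnk3 had an interval wholly below 1 (0.0825 to 0.911).

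The next 3 genes had ratios a little above 1 as deposited whose log2 ratios fell below 0 with equal totals. Kcne2 had a ratio of 1.20 (1.08 to 1.32), and its log2 ratio went from 0.25 to -0.13. Kcnj13 had a ratio of 1.19 (1.04 to 1.36), with log2 ratios of 0.23 and -0.14. For Kcnmb2 the ratio was 1.23 (0.875 to 1.74), with 0.16 and -0.05.

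Kcnq1 and Kcnmb4 had log2 ratios below 0 under each of the 3 scalings run. Kcnq1 had a ratio of 0.819 (0.588 to 1.13) and Kcnmb4 one of 0.902 (0.548 to 1.495). Both intervals include 1, so no difference was detectable at this depth. The Kcnq1ot1 ratio was 0.806 (0.766 to 0.848).

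By counting error alone, 6 of the 10 members had an interval wholly above 1 and none wholly below, as deposited. The intervals were not recomputed with equal totals. Of the 6, Kcne2 and Kcnj13 then had log2 ratios of -0.13 and -0.14. Among all genes at this level with a transcript length, 18.2% lay wholly above 1 and 33.4% wholly below. The median log2 ratio of the 10 was 0.26 as deposited and -0.0040 with equal totals, beside -0.08 and -0.38 over all 9653 genes. These 10 reached the level through these same values, so their median and counts only describe them.

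**Figure D4:**
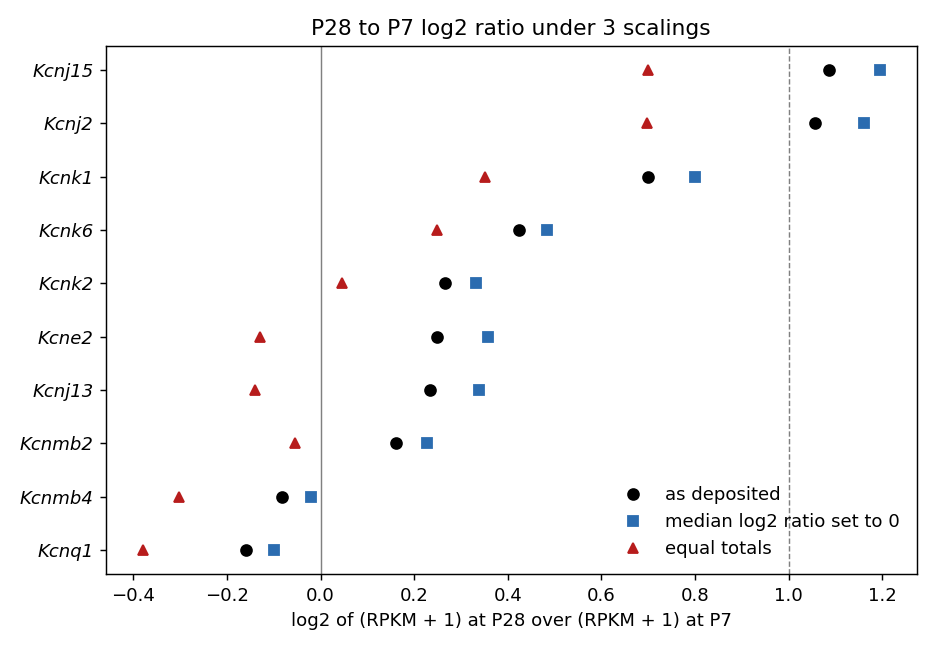
log2 ratio of (RPKM + 1) at P28 over P7 for the 10 potassium channel members of 1 RPKM or more, as deposited (circles), with the median of all genes set to 0 (squares) and with equal library totals (triangles). The dashed line marks 2-fold; Kcnj15 and Kcnj2 lie beyond it in the first 2 scalings and at 0.70 with equal totals, and Kcne2, Kcnj13 and Kcnmb2 turn negative with equal totals.

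Genes that work with these channels were read from fixed lists. Over all gene rows, 39.6% reached 1 RPKM in at least 1 library, and of these 1.18% were called higher and 1.96% lower. Of 15 partner genes without a numbered Kcn symbol, 3 reached 1 RPKM and none was called. Kcnrg, a regulator that interferes with the assembly of voltage-gated channels, had 6.73 RPKM at P7 and 5.84 at P28. Tmem175, a potassium channel of lysosomes, had 2.32 and 2.23 RPKM. Amigo1, a partner of the Shab-type channels, had 0.884 and 1.29.

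Of 21 genes of potassium-carrying pumps, their subunits and regulators, and cotransporters, 7 reached 1 RPKM and none was called in either direction. Atp1b1, which encodes a beta subunit of the sodium pump, had 134 RPKM at P7 and 236 at P28, a ratio of 1.77 (1.72 to 1.82). Atp1b3, another beta subunit gene, had 18.0 and 20.8. Slc12a2, the sodium-potassium-chloride cotransporter, had 19.8 and 23.2. The potassium-chloride cotransporter genes Slc12a4 and Slc12a7 lay between 1.31 and 1.95 RPKM. Of the small regulators of the sodium pump, Fxyd3 had 8.34 RPKM at P7 and 4.88 at P28, a ratio of 0.585 (0.506 to 0.676). Fxyd4 had 1.02 and 0.294, a ratio of 0.286 (0.0657 to 0.994). Of the 7 genes, 3 had a counting interval wholly above 1 and 2, these Fxyd genes, wholly below. Among all genes at this level with a transcript length, the shares were 18.2% and 33.4%. Fxyd4 passed the level only through its P7 value.

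Of 7 sodium and chloride channel genes, 6 reached 1 RPKM, 2 were called lower at P28 and none higher. Among all genes of 1 RPKM or more, 1.96% were called lower and 1.18% higher. Of the 6, 1 had a counting interval wholly above 1 and 5 wholly below. The shares among all genes at this level with a transcript length were 18.2% and 33.4%. Scnn1g, a sodium channel subunit, had 30.8 and 12.5 RPKM, and the calcium-activated chloride channel gene Ano1 had 14.3 and 3.29. The other 4 lay within 2-fold. Scnn1a had 23.3 and 29.3 RPKM, and Scnn1b, another subunit of the same channel, had 6.38 and 4.90. The chloride channel gene Cftr had 12.2 and 7.60, and the chloride transporter gene Slc26a9 had 33.5 and 27.6. The type 1, endothelial and fibroblast marker sums were also lower at P28, although the fibroblast markers Dcn and Pdgfra were higher. The part of these cell types in these 2 differences was not tested.

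The other 85 members lay below 1 RPKM at both ages. Of the 95 members, 33 were at 0 in both libraries (34.7%, against 31.3% of all gene rows), 33 peaked below 0.1 RPKM and 19 between 0.1 and 1 RPKM. For the members at 0 in both, 3 reads would correspond to at most 0.207 RPKM. Those closest to 1 RPKM from below were Kcnip4 and Kcnk5, and those closest from above, by the higher of their values, were Kcnk6 at 1.12 and Kcnmb4 at 1.30.

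Among the 52 members below 1 RPKM with a read in at least 1 library, 3 (5.77%) had a counting interval of the P28 to P7 ratio wholly above 1 and 5 (9.62%) wholly below. Over all genes of this kind with a transcript length, 4.41% lay wholly above and 14.7% wholly below, so these counts are not a result about the members. The 3 above 1 were Kcnn2 (about 9 and 37 reads), Kcnf1, a silent modifier (4 and 20 reads), and Kcna2, a Shaker-type gene (2 and 24 reads). The 5 below 1 were Kcnb2, a Shab-type gene (53 and 17 reads), Kcnh1, an EAG channel gene (26 and 4), Kcnh2 (22 and 11), Kcnk3, an acid-sensitive leak channel gene (12 and 5), and Kcnd1, a Shal-type gene (8 and 0). Kcnb2 had 0.203 RPKM at P7 and 0.0460 at P28. For Kcnd1 the absence of reads at P28 allows up to 0.0232 RPKM, against 0.0871 at P7. The read numbers of Kcnn2, Kcnh1 and Kcnh2 rest on a mean of several transcript lengths. The smooth muscle and pericyte, endothelial and fibroblast marker sums were lower at P28, although the fibroblast markers Dcn and Pdgfra were higher. The part of these cell types in these differences was not tested.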

How the data were processed

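RNA of sorted type 2 cells was reverse transcribed and made into libraries by tagmentation, per the labels' protocols. The authors deposited RPKM values, 1 column per library, per the file headers. TopHat, TopHat2 2.0.9 and build GRCm38 (mm10) stand in the submitters' processing notes, without a role. The RPKM program, annotation and filters: not given in the sources used here. Each column matched 1 sample title, and 0 were left unused.

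No test was run, since each age had 1 library. Analyses used Python 3.11.15 and SciPy 1.17.1. For 17387 genes with a single RefSeq-matched transcript length (GENCODE M21), low values multiplied by length were compared with whole multiples of a common step (tolerance 0.05). They matched in 64.1% of 2220 cases at P7 and 62.2% of 2090 at P28. A step fixed in advance would give 10% by chance. The step used was the one with the highest share, so the 10% is not an exact baseline for it. The steps gave reads per gene, exact (Clopper-Pearson) 95% intervals of ratios, exact Poisson intervals of levels, and floors of 3 reads. All 95 members had a length. The 29 members with several lengths, such as Kcnj15, took the mean, so their reads are approximate. PCR reads are not independent molecules. The procedure was tested on simulated Poisson counts that used the same transcript lengths. That test cannot show errors from unmatched lengths or from PCR duplicates.

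Members and gene lists were chosen with earlier results of these data known. Of the 96 rows that met the rule, 1 is not reported here, nor are 2 of the list genes, and counts of members and lists leave them out. Named were members of 1 RPKM or more, those of 0.5 or more, some with a described epithelial role, and list genes of 1 RPKM or more. Kcnh2, Kcnmb1, Kcnmb3, Kcnj14, Kcnn1, Kcnn3, Abcc8, Abcc9, Kcnmb4os1, Kcnmb4os2, neighbouring genes, Xist, Ddx3y, Kcnf1, Kcna2, Kcnb2, Kcnh1, Kcnk3 and Kcnd1 were named after their values were seen. So were the cell type markers Dcn, Pdgfra, Srgn, Cd79b, Cd68, Marco, C1qa, Hbb-b1, Hbb-b2, Hbb-bs and Hbb-bt. Alternatives changed the level, pseudocount, filter, scaling and transcript length.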

Additional observations from a re-analysis of the deposited data

How the results depend on the processing

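The number of members reaching the level was 5 at P7, at P28 and in at least 1 library when the level was raised to 2 or to 5 RPKM, and 12, 13 and 13 at 0.5 RPKM. It was 9, 8 and 9 with equal totals, and 6, 7 and 8 when the lower counting bound had to reach 1 RPKM. The number of members called higher at P28 fell from 2 to 0 with a pseudocount of 5 and with equal totals, and remained 2, Kcnj15 and Kcnj2, with a pseudocount of 0.1, without the filter, with a filter of 5 RPKM and with the median of all genes set to 0. No member was called lower in any of these settings. The median log2 ratio of 0.26 became 0 without the filter, where genes at 0 enter, 0.36 with a pseudocount of 0.1, 0.16 with one of 5, 0.35 with the median of all genes set to 0, 0.70 among the 5 members of 5 RPKM or more, and -0.0040 with equal totals. Over all genes, calls of 114 higher and 189 lower became 65 and 445 with equal totals (12.7% rather than 37.6% higher), 226 and 530 with a pseudocount of 0.1, 39 and 34 with a pseudocount of 5, 155 and 154 with the median of all genes set to 0, and 73 and 93 with a filter of 5 RPKM. With the longest transcript in place of the mean length, the lower bound of the Kcnk2 ratio moved from 0.956 to 1.01, and no other interval of the 10 members changed its side of 1. No paired analysis was possible because there was 1 library per age. Leaving out a replicate was not possible for the same reason.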
